A study of Mus musculus with 9 samples.

Results

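The scaffold of the excitatory postsynaptic density was followed through 9 genes that build it. They were Dlg1, Dlg2, Dlg3 and Dlg4, which encode the membrane-associated guanylate kinases (MAGUKs) SAP97, PSD-93, SAP102 and PSD-95, then Dlgap1, which encodes the linker GKAP, and Shank1, Shank2, Shank3 and Homer1, which encode the deep layer. They were chosen by name, all 9 were found among 55401 annotated mouse genes, and all 9 were among the 16046 genes with enough counts to test. Together they held 0.967% of all counts, and Dlg2 alone held 0.589%.

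RNA was sequenced from nuclei that carry NeuN, a protein of neuronal nuclei, sorted from the cortex of mice at 7 to 9 months of age. Of the 3 groups of 3 libraries each, 1 came from Tau P301S mice given the Cdk5i peptide, 1 from Tau P301S mice given a scrambled ("scrmb") peptide, and 1 from wild-type (WT) mice with no treatment. Both peptides were injected into the peritoneum on alternate days at 20 mg per kg. P301S is a mutation of human tau found in inherited frontotemporal dementia. The labels name neither the transgenic line nor its promoter, and they give no length of treatment. All 3 groups shared the tissue and the sort. WT mice had received no peptide, so genotype and injection cannot be told apart in a comparison with WT. The labels do not say whether each library is a different animal. The p-values therefore speak of the scatter among these libraries alone, and some of that scatter may be technical.

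The postsynaptic density is a protein sheet under the membrane of the excitatory synapse, facing the site of glutamate release. MAGUK proteins sit against the membrane and bind NMDA receptors, AMPA receptor auxiliary subunits and adhesion proteins through their PDZ domains. GKAP binds the guanylate kinase domain of a MAGUK on 1 side and the PDZ domain of a Shank on the other, and Homer proteins tie Shanks to metabotropic glutamate receptors and to one another. Cdk5 is a neuronal kinase activated by p35, and PSD-95 is among its known substrates. A nuclear library reads unspliced and newly made RNA, so it says nothing of the amount of these proteins at synapses, nor of their phosphorylation.

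Total counts ran from 21584712 to 26715938 per library. The neuronal sort was visible in the marker genes. Rbfox3, which encodes NeuN, had 23942 to 36801 counts per library, whereas the microglial gene C1qa had at most 2, the endothelial gene Cldn5 at most 3 and the oligodendrocyte lineage gene Olig2 at most 8. The summed level of 6 excitatory neuron markers ran from 542 to 778 CPM, counts scaled to a common library size, in Cdk5i libraries, from 673 to 745 in scrmb libraries and from 702 to 737 in WT libraries. Markers of striatal projection neurons were also read, with summed levels of 2078 to 2783 CPM in Cdk5i, 1456 to 2099 in scrmb and 1544 to 2396 in WT libraries, most of it from Pde10a. The 6 oligodendrocyte markers summed to 70.5 to 116 CPM in Cdk5i, 73.5 to 103 in scrmb and 67.7 to 78.5 in WT libraries. The part of these cell type differences in the results below was not tested. In bulk libraries, fewer cells of a type and less RNA per cell cannot be told apart.

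No scaffold gene passed the threshold of an adjusted p of 0.05 in any of the 3 comparisons (edgeR quasi-likelihood test, Benjamini-Hochberg adjustment over 16046 genes). The count was 0 of 9 for Cdk5i against scrmb, where 2 genes or 0.0125% of all tested genes passed, 0 of 9 for Cdk5i against WT, where 12 genes or 0.0748% passed, and 0 of 9 for scrmb against WT, where 13 genes or 0.0810% passed. An unadjusted p under 0.05 was reached by 0 of 9 for Cdk5i against scrmb against 5.33% of all genes, by Dlg4 for Cdk5i against WT against 11.0%, and by Dlg2 and Dlg4 for scrmb against WT against 10.1%. DESeq2 and limma-voom also called 0 of 9 in each comparison, where DESeq2 called 0.168% of all genes for Cdk5i against scrmb, 0.704% for Cdk5i against WT and 0.467% for scrmb against WT. The log2 fold change was positive for 8 of 9 genes for Cdk5i against scrmb, with a median of 0.13, while 47.2% of all genes were positive and their median was -0.0095. For Cdk5i against WT 7 of 9 were positive, with a median of 0.10, against 48.8% and a median of -0.0051 over all genes. For scrmb against WT 6 of 9 were positive, with a median of 0.050, against 51.7% and a median of 0.0084 over all genes. With each library's trend on gene length taken out as an offset, 6 of 9 were positive for Cdk5i against scrmb, with a median of 0.028 against -0.021 over all genes. In that fit 6 of 9 were also positive in each comparison with WT, with medians of 0.088 for Cdk5i and 0.093 for scrmb, against -0.010 and 0.012 over all genes. The 3 comparisons share libraries, so their values are not independent of one another. The scaffold genes were read deeply, and their median standard error was 0.096 in each comparison against 0.14 over all genes.

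**Figure D1:**
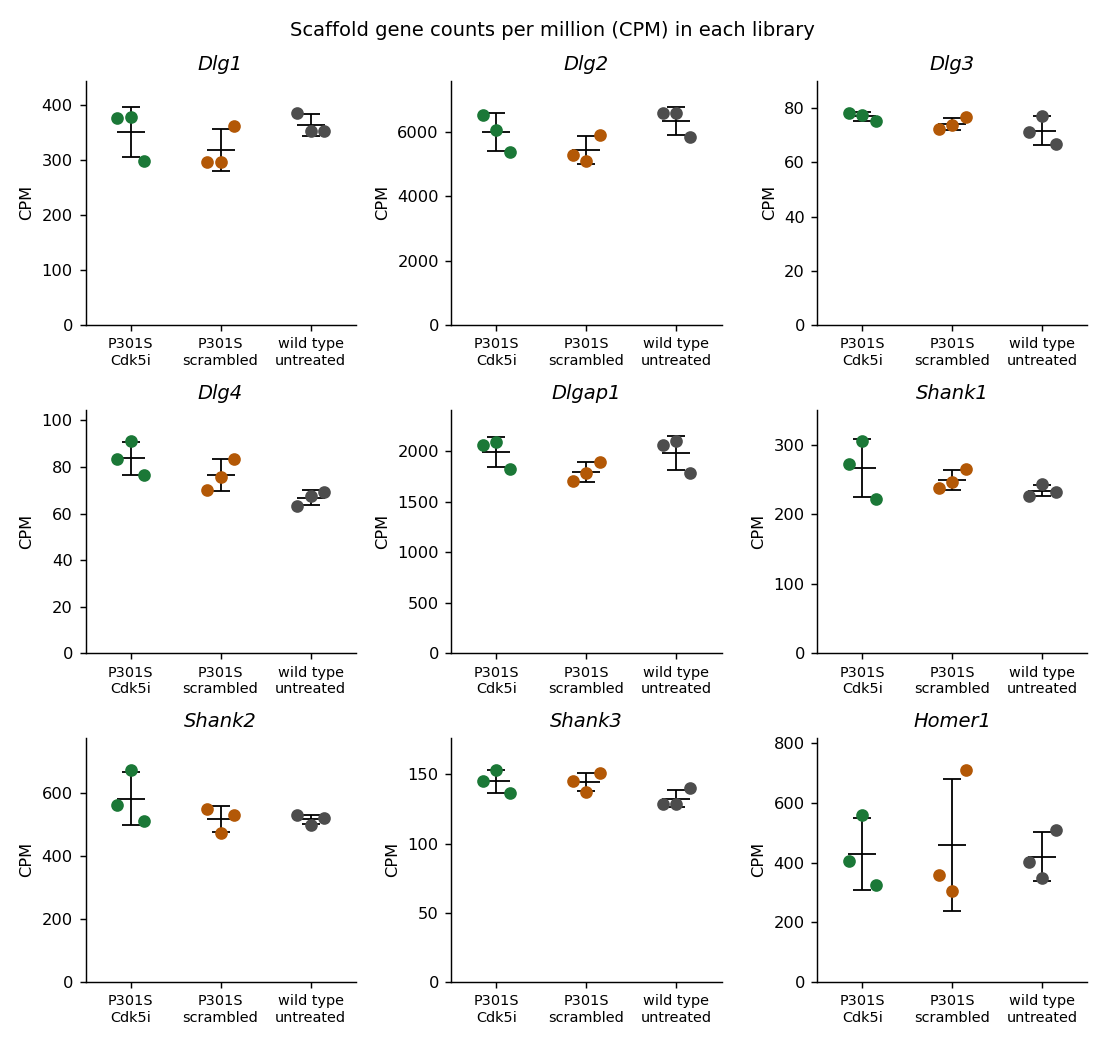
Level of each scaffold gene in CPM (y axis, starting at 0) in P301S Cdk5i, P301S scrambled and untreated WT libraries (x axis). Points are libraries, and the bars give the mean and SD of 3. Dlg4 in the Cdk5i libraries (76.8 to 91.1 CPM) lay above all WT libraries (63.2 to 69.5 CPM), and Homer1 had the widest spread within groups.

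Compared per length of gene, the scale used here to set genes beside each other because introns were counted, Shank1 had the highest level. Exon and intron reads were not told apart, so the part of gene structure in this order was not tested. It averaged 5.31 ± 0.828 CPM per kb in Cdk5i, 4.97 ± 0.290 in scrmb and 4.66 ± 0.167 in WT libraries (SD, n = 3 each), higher per kb than 97.7% of tested genes. Homer1 followed with 4.07 ± 1.14, 4.34 ± 2.10 and 3.98 ± 0.770 CPM per kb in Cdk5i, scrmb and WT libraries, and its libraries overlapped those of Shank1 in all 3 groups. Dlg2 came next with 3.04 ± 0.297, 2.75 ± 0.219 and 3.21 ± 0.222 CPM per kb in Cdk5i, scrmb and WT libraries, again overlapping with Homer1 in all 3 groups. Dlg4, Shank3 and Dlgap1 averaged between 2.10 and 2.74 CPM per kb in every group, and neighbours in this order overlapped, except Shank3 and Dlgap1 in scrmb libraries. Dlg1 averaged 1.66, 1.50 and 1.71 CPM per kb and Dlg3 averaged 1.52, 1.46 and 1.41 in Cdk5i, scrmb and WT libraries, and these neighbours overlapped in the P301S groups but not in WT. Shank2 was the lowest with 1.38, 1.22 and 1.22 CPM per kb. Even Shank2 lay above 78.2% of tested genes per kb.

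Dlg4 encodes PSD-95, the most studied MAGUK of the mature excitatory synapse, and spans 30.6 kb of chromosome 11 (GRCm38, chr11:70016942-70047522, plus strand). It had 83.3, 91.1 and 76.8 CPM in Cdk5i libraries 1 to 3, against 70.3, 75.7 and 83.6 CPM in scrmb libraries 1 to 3 and 63.2, 67.5 and 69.5 CPM in WT libraries 1 to 3. Every P301S library, with either peptide, lay above every WT library, while the Cdk5i and scrmb libraries overlapped. Groups that did not overlap, with the transgenic group higher, were found for 8.03% of all tested genes for Cdk5i against WT and for 8.26% for scrmb against WT, and Dlg4 was the only scaffold gene among them in each. For Cdk5i against scrmb such a gap was seen for 4.95% of all genes and for 0 of 9 scaffold genes. The log2 fold change was 0.33 (95% interval 0.16 to 0.50) for Cdk5i against WT, a 1.25-fold difference, with an edgeR adjusted p of 0.186, and the unadjusted p of 0.00121 ranked 104 of 16046. It was 0.20 (0.026 to 0.37) for scrmb against WT, with an adjusted p of 0.431, and 0.13 (-0.042 to 0.30) for Cdk5i against scrmb, with an adjusted p of 0.949. Without a low-count filter the adjusted p for Cdk5i against WT was 0.0019, and 408 genes then passed in place of 12. With each library left out in turn the adjusted p ran from 0.0953 to 0.632. Under the other 12 alternatives it ran from 0.0525, by DESeq2, to 0.536, in a fit without the 3 libraries highest in Homer1. Among those that kept every library of both groups the highest was 0.354, with the replicate number as a block.

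Dlg2 encodes PSD-93, which shares partners with PSD-95, and is the longest of these genes at 1972.6 kb (chr7:90476672-92449247). It had 6536, 6076 and 5372 CPM in Cdk5i libraries, against 5271, 5100.1 and 5919.9 CPM in scrmb libraries and 6596, 6589 and 5834 CPM in WT libraries. The lower scrmb libraries lay below every library of the other groups, but scrmb library 3 lay within their range. The log2 fold change was -0.22 (-0.44 to -0.0075) for scrmb against WT, with an adjusted p of 0.477. Between the peptides, Cdk5i against scrmb, it was 0.14 (-0.073 to 0.36), with an adjusted p of 0.955, and for Cdk5i against WT -0.081 (-0.30 to 0.13), with an adjusted p of 0.812.

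Dlg1 encodes SAP97, a MAGUK that also takes part in receptor trafficking outside the synapse, and spans 211.7 kb (chr16:31663443-31875129). It had 376, 378 and 297 CPM in Cdk5i libraries, against 296, 296 and 362 CPM in scrmb libraries and 385, 352 and 352 CPM in WT libraries. As with Dlg2, Cdk5i library 3 and scrmb libraries 1 and 2 were low, the P301S libraries with the highest mitochondrial shares, at 0.130, 0.135 and 0.137%, whose part in this was not tested. Log2 fold changes of Dlg1 were 0.14 (-0.085 to 0.36) for Cdk5i against scrmb, -0.051 (-0.27 to 0.17) for Cdk5i against WT and -0.19 (-0.41 to 0.034) for scrmb against WT, and the lowest adjusted p was 0.576.

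Dlg3 encodes SAP102, the MAGUK that predominates at young synapses, and spans 50.7 kb (chrX:100767722-100818410). It had 78.3, 77.7 and 75.2 CPM in Cdk5i libraries, against 72.3, 73.7 and 76.7 CPM in scrmb libraries and 71.1, 77.2 and 66.7 CPM in WT libraries. All 9 values lay close together, and the spread of Dlg3 within groups (SD 0.068 on the log2 scale) was the smallest of the scaffold genes. Log2 fold changes of Dlg3 were 0.053 (-0.084 to 0.19) for Cdk5i against scrmb, 0.10 (-0.034 to 0.24) for Cdk5i against WT and 0.050 (-0.088 to 0.19) for scrmb against WT.

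Within the MAGUK family, the share of each gene was taken per length, as its CPM per kb over the sum of the 4. Dlg4 made up 29.1, 31.8 and 30.9% in Cdk5i libraries, against 29.5, 31.3 and 30.5% in scrmb libraries and 23.9, 25.3 and 27.7% in WT libraries. Dlg2 made up 35.4, 32.9 and 33.5% in Cdk5i libraries, against 34.3, 32.7 and 33.5% in scrmb libraries and 38.7, 38.2 and 36.0% in WT libraries. The P301S libraries, with either peptide, thus had a higher share of Dlg4 and a lower share of Dlg2 than every WT library, with no overlap, and the peptide groups lay over each other. The shares of a family sum to 100%, so they are not independent measures, and the differences were described without a test. Shares were taken in the Dlg and Shank families alone, so how common such a gap is was not measured. With gene length offsets the log2 fold change of Dlg2 was -0.051 in place of -0.22 for scrmb against WT. For Cdk5i against WT it was -0.070 in place of -0.081. Dlg1 averaged 18.4 ± 0.994% in Cdk5i, 18.2 ± 0.739% in scrmb and 20.1 ± 1.02% in WT libraries, and Dlg3 averaged 17.0 ± 1.06, 17.9 ± 0.834 and 16.6 ± 0.754% in the same order (SD, n = 3 each). In the Shank family the groups overlapped for every gene, with Shank1 at 58.3 ± 1.93% in Cdk5i, 57.9 ± 1.58% in scrmb and 57.8 ± 1.47% in WT libraries.

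**Figure D2:**
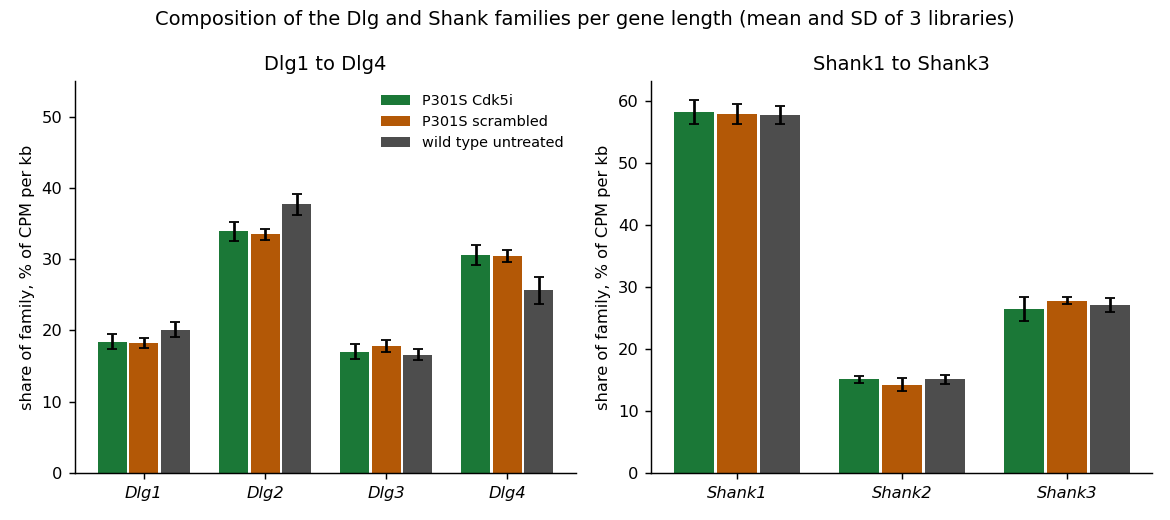
Share of each gene in the summed CPM per kb of its family (y axis, %, starting at 0) for Dlg1 to Dlg4 and Shank1 to Shank3, in P301S Cdk5i, P301S scrambled and untreated WT libraries. Bars are means of 3 libraries and lines are SD. The Dlg4 share was 30.6% in Cdk5i and 30.4% in scrmb against 25.6% in WT, and the Dlg2 share was 33.9% and 33.5% against 37.7%.

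Dlgap1 encodes GKAP, the linker between MAGUKs and Shanks, and spans 852.3 kb (chr17:69969073-70821413). It had 2063, 2086 and 1818 CPM in Cdk5i libraries, against 1702, 1779.8 and 1896 CPM in scrmb libraries and 2061, 2096 and 1783 CPM in WT libraries. Each group held a library between 1702 and 1818 CPM, so that the groups overlapped. Log2 fold changes were 0.15 (-0.042 to 0.34) for Cdk5i against scrmb, 0.0065 (-0.19 to 0.20) for Cdk5i against WT and -0.14 (-0.34 to 0.048) for scrmb against WT, and the lowest adjusted p was 0.620. Over the 9 libraries Dlgap1 and Dlg2 moved most alike of all 36 pairs of scaffold genes, with a root mean square difference of 0.062 between their log2 deviations.

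Shank1 spans 50.3 kb (chr7:44310253-44360572) and encodes a Shank found mainly in brain. It had 273, 305 and 223 CPM in Cdk5i libraries, against 238, 246 and 266 CPM in scrmb libraries and 227, 244 and 233 CPM in WT libraries. The Cdk5i group held both the highest and the lowest of the 9 values. Log2 fold changes were 0.095 (-0.11 to 0.31) for Cdk5i against scrmb, 0.19 (-0.023 to 0.40) for Cdk5i against WT and 0.092 (-0.12 to 0.30) for scrmb against WT.

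Shank2 spans 422.6 kb (chr7:144001928-144424494), and in people its variants are linked to autism. It had 562, 673 and 510.1 CPM in Cdk5i libraries, against 549, 472 and 529 CPM in scrmb libraries and 529, 498 and 519 CPM in WT libraries. Cdk5i library 2 stood above all others, and the rest lay between 472 and 562 CPM. Its log2 fold change was 0.17 (-0.035 to 0.38) for Cdk5i against scrmb, 0.17 (-0.031 to 0.38) for Cdk5i against WT and 0.0034 (-0.20 to 0.21) for scrmb against WT.

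Shank3, whose loss in people causes Phelan-McDermid syndrome, spans 60.6 kb (chr15:89499623-89560261). It had 145, 153 and 137 CPM in Cdk5i libraries, against 145, 137 and 151 CPM in scrmb libraries and 129, 129 and 139.9 CPM in WT libraries. The P301S groups lay over each other, and WT library 3 lay within their range. Its log2 fold change was 0.0049 (-0.14 to 0.15) for Cdk5i against scrmb, 0.13 (-0.012 to 0.27) for Cdk5i against WT and 0.12 (-0.017 to 0.27) for scrmb against WT. The lowest adjusted p of the 3 Shank genes in any comparison was 0.499.

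**Figure D3:**
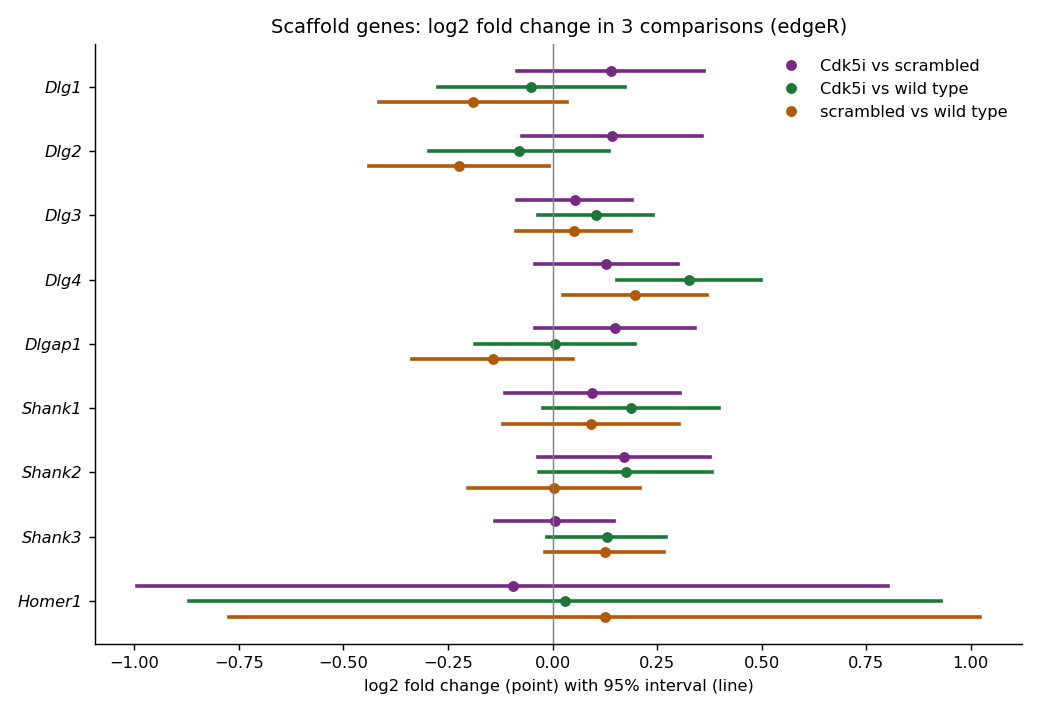
Log2 fold change (x axis, points) with its 95% interval (lines) for each scaffold gene (y axis) in Cdk5i against scrambled, Cdk5i against wild type and scrambled against wild type. The interval of Dlg4 for Cdk5i against wild type (0.16 to 0.50) lies farthest from 0, and those of Homer1 are the widest, from -0.99 to 0.80 for Cdk5i against scrambled.

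Homer1 encodes long proteins that cross-link Shanks and metabotropic glutamate receptors, and a short form, Homer1a, that is made after neuronal activity and lacks the part needed for cross-linking. Whole-gene counts do not separate these forms. The gene spans 105.5 kb (chr13:93299635-93405129) and had 404, 559 and 323 CPM in Cdk5i libraries, against 358, 304 and 712 CPM in scrmb libraries and 402, 349 and 509 CPM in WT libraries. The groups overlapped, and scrmb library 3 was the highest of all 9. The coefficient of variation was 28.0% in Cdk5i, 48.3% in scrmb and 19.3% in WT libraries, and the SD within groups of 0.47 on the log2 scale was larger than that of 99.2% of the 3723 genes with a mean of at least 1000 counts. Its counts ran from 6936 to 17941 per library, where counting error is at most 1.20%. The log2 fold change was -0.095 (-0.99 to 0.80) for Cdk5i against scrmb, 0.030 (-0.87 to 0.93) for Cdk5i against WT and 0.12 (-0.77 to 1.02) for scrmb against WT. Group differences anywhere within these intervals remain compatible with the data. With Homer1 the libraries decided the sign: without scrmb library 3 the log2 fold change was -0.34 for scrmb against WT and 0.38 for Cdk5i against scrmb.

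The libraries that were high in Homer1 were also high in genes induced by neuronal activity. The list held 10 such genes, Fos, Fosb, Junb, Egr1, Egr3, Arc, Npas4, Nr4a1, Nptx2 and Bdnf, and their summed level was 71.5, 229 and 125 CPM in Cdk5i libraries, against 113, 118 and 253 CPM in scrmb libraries and 137, 109 and 229 CPM in WT libraries. All 10 genes had their highest level within the group in Cdk5i library 2, scrmb library 3 and WT library 3, the same libraries in which Homer1 was highest. Homer1 included, these libraries were the highest of their groups for 7, 8 and 3 scaffold genes. The order did not hold throughout. Cdk5i library 1 had a lower sum than Cdk5i library 3, 71.5 against 125 CPM, but more Homer1, 404 against 323 CPM. Arc, which encodes a protein that drives AMPA receptor removal, had 6.25, 43.5 and 16.3 CPM in Cdk5i libraries, against 18.0, 15.7 and 41.2 CPM in scrmb libraries and 15.8, 10.9 and 38.7 CPM in WT libraries. Of the 10 genes 0 passed the threshold in any comparison by edgeR, 0 had an unadjusted p under 0.05, and the groups overlapped in their sum. Those of lowest p were Junb, Nr4a1 and Egr3 at -0.26, -0.25 and -0.30 for Cdk5i against scrmb (adjusted p = 0.980, 0.984 and 0.986), Bdnf, Nptx2 and Junb at -0.44, -0.34 and 0.28 for Cdk5i against WT (0.714, 0.744 and 0.881), and Nptx2, Junb and Bdnf at -0.44, 0.54 and -0.27 for scrmb against WT (0.706, 0.770 and 0.849). With a score of these 10 genes in the fit, a choice made after the values were seen, the standard error of Homer1 was 0.26 for Cdk5i against scrmb in place of 0.37, its log2 fold change was 0.091 (-0.55 to 0.73), and no scaffold gene passed.

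**Figure D4:**
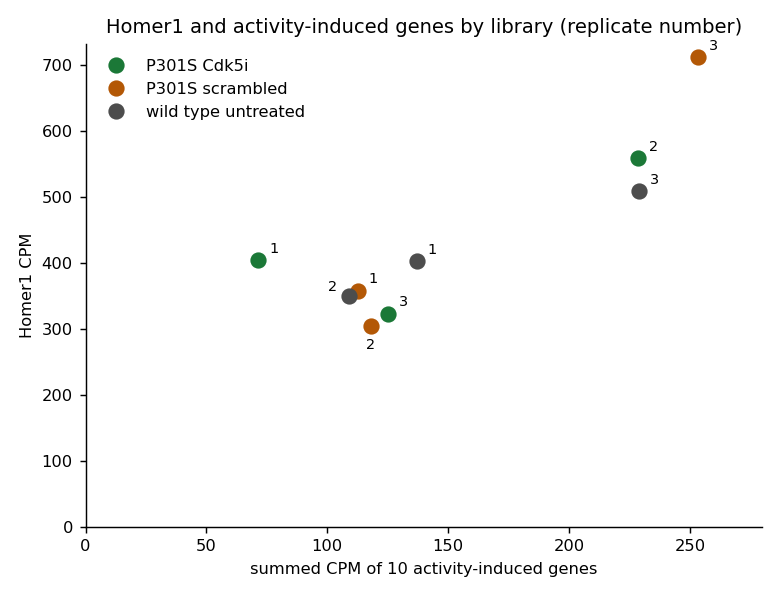
Homer1 level (y axis, CPM) against the summed CPM of 10 activity-induced genes (x axis), both from 0, for the 9 libraries, with the replicate number beside each point. Cdk5i library 2, scrambled library 3 and WT library 3 sit at 229, 253 and 229 CPM on the x axis and at 559, 712 and 509 CPM on the y axis, apart from the other 6.

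The promoters are shown because the letters at transcript starts of Homer1 and Dlg4 can be set beside their levels. RefSeq (GRCm38.p6) windows of 300 bases, 250 before the start of a RefSeq transcript and 50 after it, were found for 7 of the 9 genes, 17 windows in all, with none for Shank1 and Shank2. They were searched on both strands for TGACG, the core of the cyclic AMP response element bound by the activity-dependent factor CREB, whose reverse complement is CGTCA, and overlapping matches were counted separately. In the sequences, read 5′ to 3′ on the plus strand, capitals mark a match. The Homer1 window at chr13:93303507-93303806 held 3 matches, and the Dlg4 window at chr11:70023732-70024031 and the Dlg3 window at chrX:100774245-100774544 held 1 each, while the other 14 windows held 0. The Homer1, Dlg4 and Dlg3 windows lie within the genes as counted, whose annotated starts are farther upstream, at 93299635, 70016942 and 100767722.
Homer1: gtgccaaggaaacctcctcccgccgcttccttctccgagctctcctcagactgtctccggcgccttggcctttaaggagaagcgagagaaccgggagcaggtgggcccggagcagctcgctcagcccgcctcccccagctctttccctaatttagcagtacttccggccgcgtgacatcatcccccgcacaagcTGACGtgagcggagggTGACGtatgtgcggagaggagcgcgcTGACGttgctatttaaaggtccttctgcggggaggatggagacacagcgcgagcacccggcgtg
Dlg4: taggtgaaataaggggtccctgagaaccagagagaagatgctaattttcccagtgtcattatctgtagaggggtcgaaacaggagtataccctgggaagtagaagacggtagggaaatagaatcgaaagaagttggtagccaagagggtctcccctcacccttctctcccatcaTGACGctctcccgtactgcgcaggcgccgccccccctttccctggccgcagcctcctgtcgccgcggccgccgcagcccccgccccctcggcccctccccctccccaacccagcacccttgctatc
Of all 32851 windows in the RefSeq table, 20.81% held at least 1 match and 1.035% held at least 3. By its window with the most matches, 23.05% of the 27025 genes in that table held at least 1 and 0.255% held at least 4. Of the 10 activity-induced genes, 6 had a window, all 6 held at least 1 match by the same count, and Nr4a1 had the most with 4. A match is a description of letters and not evidence that CREB binds there.

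The median fold change followed the length of the gene, over 6 length classes of all tested genes, in both comparisons with scrmb. For scrmb against WT the median log2 fold change was 0.038 over 3899 genes under 10 kb, 0.022 over 7119 genes of 10 to 50 kb and -0.13 over 235 genes longer than 500 kb. For Cdk5i against scrmb it was -0.080, -0.022 and 0.098 over the same classes. In Cdk5i against WT the medians did not follow length in order, since the shortest class had -0.044 and the longest -0.051, both lower than the classes between them, which ran from -0.0016 to 0.023. Dlg2 and Dlgap1 belong to the longest class. They had -0.22 and -0.14 for scrmb against WT, where the quartiles of the class were -0.22 and -0.040, and 0.14 and 0.15 for Cdk5i against scrmb, where they were 0.022 and 0.15. Dlg4 belongs to the class of 10 to 50 kb and lay above its upper quartile in each comparison. With each library's trend on gene length taken out as an offset, Dlg2 had a log2 fold change of -0.051 (-0.18 to 0.080) for scrmb against WT, in place of -0.22, and -0.018 (-0.15 to 0.11) for Cdk5i against scrmb, in place of 0.14. Dlgap1 had -0.011 (-0.15 to 0.12) and 0.017 (-0.12 to 0.15) in these comparisons, in place of -0.14 and 0.15. For Cdk5i against scrmb Shank2 had 0.065 (-0.14 to 0.27), in place of 0.17, and Dlg1 had 0.057 (-0.13 to 0.25), in place of 0.14. Dlg4 kept a log2 fold change of 0.32 (0.15 to 0.49) for Cdk5i against WT and 0.20 (0.024 to 0.37) for scrmb against WT.

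**Figure D5:**
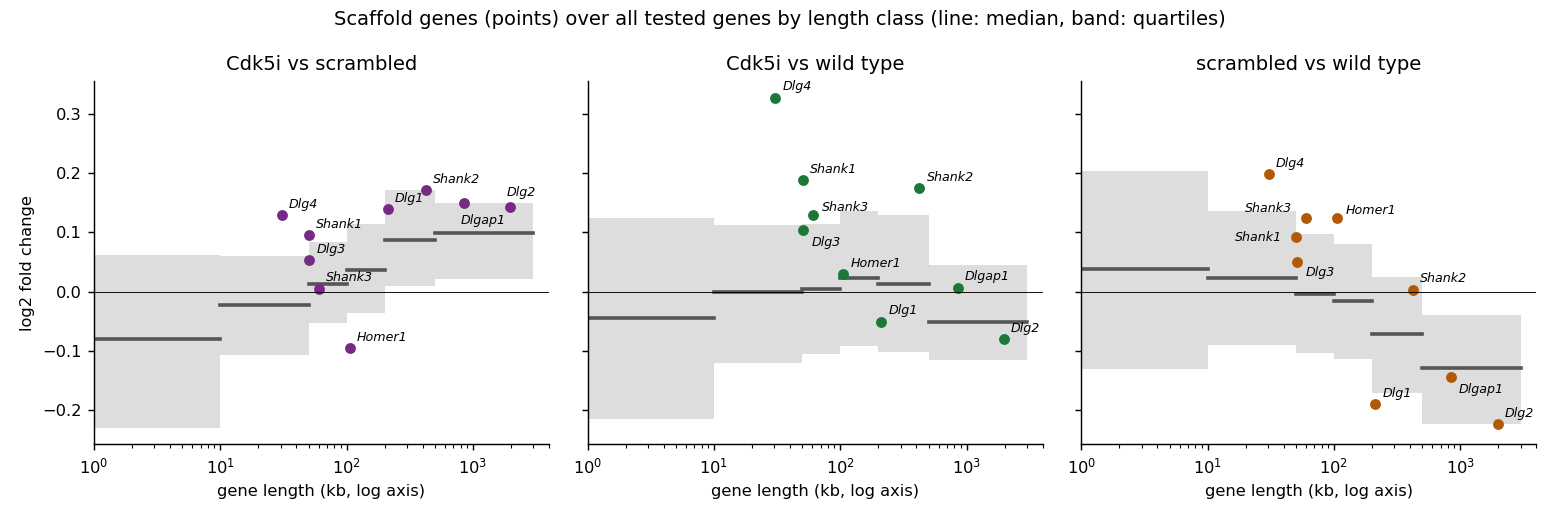
Log2 fold change (y axis) against gene length in kb (x axis, log scale) for the scaffold genes (points) in the 3 comparisons, over the median (line) and quartiles (band) of all tested genes in 6 length classes. Dlg2 and Dlgap1 have the sign of the median of genes over 500 kb, -0.13 for scrambled against wild type and 0.098 for Cdk5i against scrambled, while Dlg4 lies above the quartile band of its class in every panel.

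Within both P301S groups most scaffold genes were high and low in the same libraries. Cdk5i library 3 was the lowest of its group for 9 of 9 scaffold genes, against 32.0% of all tested genes, and scrmb library 3 was the highest of its group for 8 of 9, against 33.2%. Cdk5i library 2 was the highest of its group for 7 of 9, against 33.6%, and in the WT group each library was the highest for 3 of 9. Cdk5i library 3 also had the lowest summed level of the excitatory neuron markers in its group, with 542 CPM against 753 and 778 in Cdk5i libraries 1 and 2, and the lowest of 4 markers of all neurons, with 4894 CPM against 5896 and 5563. The 9 scaffold genes together held 1.01, 1.02 and 0.909% of all counts in Cdk5i libraries, against 0.906, 0.896 and 0.993% in scrmb libraries and 1.02, 1.01 and 0.941% in WT libraries. Counts of mitochondrial genes made up 0.0793, 0.108 and 0.130% in Cdk5i libraries, against 0.135, 0.137 and 0.0989% in scrmb libraries and 0.117, 0.0922 and 0.127% in WT libraries. The scaling (TMM) factors were 0.962, 0.982 and 1.03 in Cdk5i libraries, against 1.04, 1.06 and 0.994 in scrmb libraries and 0.972, 0.970 and 0.990 in WT libraries. Cdk5i library 3, scrmb libraries 1 and 2 and WT library 3 had the lowest scaffold totals, and the highest mitochondrial shares and scaling factors, of their groups. The part of these differences in the results was not tested. Since Cdk5i library 3 was the lowest of its group for 9 of 9 scaffold genes, leaving it out raises their Cdk5i means by construction. The larger log2 fold changes without it are therefore no separate evidence of a difference. Without Cdk5i library 3, Dlg4 had a log2 fold change of 0.39 for Cdk5i against WT, with an edgeR adjusted p of 0.0953, Shank1 had 0.31, with an adjusted p of 0.149, and Shank2 had 0.27, with an adjusted p of 0.300. For Cdk5i against scrmb, Shank2 then had 0.26 and Dlg1 0.25, and the lowest adjusted p of the scaffold genes was 0.590.

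Of the partners of the scaffold, 5 lists of postsynaptic genes held 71 tested genes, and 0 of these passed the threshold in any comparison, while 8 for Cdk5i against scrmb, 21 for Cdk5i against WT and 18 for scrmb against WT had an unadjusted edgeR p under 0.05, where 5.33%, 11.0% and 10.1% of all tested genes did. By DESeq2 0, 2 and 3 of the 71 passed in these comparisons, as did 27, 113 and 75 of all genes, and by limma-voom 0 of the 71 in each. With gene length offsets 4, 22 and 16 of the list genes had an unadjusted edgeR p under 0.05 in these comparisons, as did 806, 1865 and 1594 of all genes. All tested genes of 200 to 500 kb had a median of 0.087 for Cdk5i against scrmb and -0.071 for scrmb against WT. The part of gene length in the signs below was not tested. Among the 19 receptor and auxiliary subunits held by the scaffold, 18 had a positive log2 fold change for Cdk5i against scrmb. Of all tested genes 47.2% had one, and the medians were -0.0095 over all genes and 0.13 for the subunits. Those with the lowest p there were Cnih3, an auxiliary subunit of AMPA receptors, at 0.36 ± 0.095 (SE, adjusted p = 0.636), Shisa9, another such subunit, at 0.30 ± 0.082 (adjusted p = 0.667), and the NMDA receptor subunit gene Grin2c at 0.51 ± 0.17 (adjusted p = 0.768). For scrmb against WT 11 of the 19 were negative, where 51.7% of all tested genes were positive. Among them were the AMPA receptor gene Gria4 at -0.31 ± 0.076 (edgeR adjusted p = 0.249) and the metabotropic receptor gene Grm5 at -0.25 ± 0.084 (adjusted p = 0.354). Gria4 passed there by DESeq2, with an adjusted p of 0.0228, and by edgeR with no low-count filter, with 0.0058. Of the same 19, 12 were positive for Cdk5i against WT, where 48.8% of all tested genes were. They were led by Cacng8, an AMPA receptor auxiliary subunit, at 0.25 ± 0.071 (adjusted p = 0.243), Grin2c at 0.58 ± 0.17 (adjusted p = 0.248) and Grin2d at 0.28 ± 0.098 (adjusted p = 0.337).

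Among 26 tested signalling and adaptor genes bound by the scaffold, Baiap2 was nearest to the threshold. It encodes IRSp53, which binds PSD-95 and Shank proteins and shapes the actin of the spine. It averaged 275 ± 12.2 CPM in Cdk5i and 256 ± 15.9 CPM in scrmb libraries, against 207 ± 11.9 CPM in WT libraries (SD, n = 3 each). The log2 fold change was 0.41 ± 0.070 (SE) for Cdk5i against WT, with an adjusted p of 0.0627, and 0.31 ± 0.070 for scrmb against WT, with an adjusted p of 0.220. For Cdk5i against WT it passed under 4 alternatives, with an adjusted p of 0.00013 by DESeq2 and 0.0461 with the gene length offsets, the other 2 being no low-count filter and the activity score. It also passed for scrmb against WT under 2 alternatives, with an adjusted p of 0.0247 by DESeq2 and 0.0044 with no low-count filter. For Cdk5i against WT the AMPA receptor adaptor Grip2 stood at 0.31 ± 0.075, with an adjusted p of 0.185. For scrmb against WT the MAGUK-related Magi3 had -0.28 ± 0.077 (adjusted p = 0.285) and Cttn, the actin-binding cortactin, 0.20 ± 0.073 (adjusted p = 0.390). For Cdk5i against scrmb the genes with the lowest p were Sipa1l1 at 0.21 ± 0.086, Anks1b at 0.18 ± 0.078 and Grip2 at 0.16 ± 0.075, each with an adjusted p of 0.922.

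The 4 tested paralogs of the scaffold genes were all positive for Cdk5i against scrmb, with a median of 0.16, where 47.2% of all tested genes were positive. Homer2 had the lowest p of the paralogs there at 0.20 ± 0.087 (SE, adjusted p = 0.922), before Dlgap4 at 0.15 ± 0.080 and Dlgap3 at 0.16 ± 0.087 (adjusted p = 0.942 each). For Cdk5i against WT Dlgap4 had 0.29 ± 0.080 (adjusted p = 0.239), Dlgap3 0.26 ± 0.087 (adjusted p = 0.314) and Homer2 0.16 ± 0.087 (adjusted p = 0.530). Dlgap2 averaged 2493 ± 276 CPM in Cdk5i, 2345 ± 273 CPM in scrmb and 2697 ± 137 CPM in WT libraries (SD, n = 3 each). In scrmb against WT it had -0.20 ± 0.10 (SE, adjusted p = 0.545), before Dlgap4 at 0.14 ± 0.080 (adjusted p = 0.596) and Dlgap3 at 0.099 ± 0.087 (adjusted p = 0.750). Among 15 excitatory adhesion genes, 12 were negative for scrmb against WT, where 51.7% of all tested genes were positive. The 12 included Lrfn5 at -0.25 ± 0.081 (adjusted p = 0.330), Adgrl3 at -0.22 ± 0.072 (adjusted p = 0.330) and Nlgn1, a neuroligin, at -0.22 ± 0.092 (adjusted p = 0.455). Against WT, Cdk5i libraries had 11 negative, where 48.8% of all tested genes were positive. These included Nlgn3 at -0.35 ± 0.11 (adjusted p = 0.313), Lrrtm2 at -0.30 ± 0.13 (adjusted p = 0.425) and Adgrl3 at -0.16 ± 0.072 (adjusted p = 0.430). Between Cdk5i and scrmb 9 of the 15 were positive, against 47.2% of all tested genes, with Lrfn2 at 0.33 ± 0.13 (adjusted p = 0.893), Lrrtm3 at 0.15 ± 0.091 (adjusted p = 0.945) and Lrfn5 at 0.12 ± 0.081 (adjusted p = 0.953).

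Cdk5 itself had 14.8, 18.7 and 16.7 CPM in Cdk5i libraries, against 19.1, 22.0 and 16.1 CPM in scrmb libraries and 16.3, 15.3 and 16.2 CPM in WT libraries. Cdk5r1, which encodes the activator p35, had 17.5 ± 1.09 CPM in Cdk5i, 19.2 ± 0.628 CPM in scrmb and 19.3 ± 0.169 CPM in WT libraries (SD, n = 3 each). Neither gene passed the threshold in any comparison, and the lowest adjusted p was 0.477, for Cdk5 in scrmb against WT. Cdk5r2, which encodes the activator p39, had 0 counts in all 9 libraries, and the annotation places it wholly within another gene on its strand, where read pairs were not counted.

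The genes whose levels moved most like each scaffold gene over the 9 libraries were taken from 10900 others with a mean of at least 50 counts, by the root mean square difference of log2 deviations from each gene's mean. For Dlg4 they were Cacnb1 (0.046), Neurl1b (0.051) and Dlgap4 (0.054), where its own root mean square deviation was 0.16. For Shank1 they included Adgrb1 (0.038) and Ptgfrn (0.046), against 0.14. For Dlg2 they were B3galt1 (0.036), Grm8 (0.037) and Atrnl1 (0.037), against 0.14, and for Dlgap1 Xylt1 (0.030), Dip2c (0.037) and Fgf12 (0.039), against 0.11. For Dlg1 they were Rps6ka3 (0.036), Slc8a1 (0.043) and Ptk2 (0.049), against 0.15, and for Dlg3 Phactr3 (0.028), Tnr (0.030) and Dip2b (0.033), against 0.070. For Shank2 they were Rnf165 (0.039), Gabbr2 (0.043) and Ssbp3 (0.048), against 0.14, and for Shank3 Acvr1b, Mlxip and Ggt7 (0.032 each), against 0.085. For Homer1 the nearest genes, Spred1, Synj2 and Grasp, differed by 0.16, 0.16 and 0.17, against its own deviation of 0.38. A gene that varies more can also differ more from its nearest genes, so each difference is read beside the gene's own deviation.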

How the data were processed

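Nuclear RNA was extracted with a kit made for formalin-fixed paraffin-embedded tissue and copied with a stranded total RNA kit for pico input, and the reads were paired, of 40 bases, per the labels. Each deposited file holds raw counts of read pairs per gene, made by the authors with featureCounts 2.0.0 on Ensembl release 102 with whole genes as features and reversed strand, per the file headers. Introns and exons therefore count together, and pairs that overlap several genes on 1 strand are left out, which touched 5.42% of the length of Dlg2 and at most 3.46% of any other scaffold gene. The submitters' processing notes give Subread 2.0.0, STAR 2.7.9a, DESeq2 1.36.0 and the build GRCm38, with no roles.

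In R 4.3.3, edgeR 4.0.16 was applied to the counts, using TMM factors, filterByExpr by group (minimum count 10) and 1 robust quasi-likelihood fit of 3 group means to 9 libraries, with 6 residual degrees of freedom. P-values were adjusted by Benjamini-Hochberg over 16046 genes at 0.05. CPM used the TMM-scaled total. A standard error is the absolute log2 fold change divided by the root of F, with 95% intervals. No library was a copy of another (chi-square per gene at least 8.82 between libraries of a group, Spearman at least 0.990). The procedure was tested on simulated counts whose planted changes were all larger than any found for a scaffold gene. That test therefore does not bear on changes as small as theirs. Named were the scaffold genes and, of each list, any gene past the threshold and otherwise the 3 of lowest p. Arc was added once its values were known, and some genes that this rule names are not reported here. The scaffold genes and the lists were chosen with earlier results of these data known. Alternatives were DESeq2 1.42.0, limma-voom 3.58.1, other size factors, library sizes without ribosomal and mitochondrial RNA, other filters, 2-group fits, non-robust dispersion, the replicate number as a block, gene length offsets and each library left out.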

Additional observations from a re-analysis of the deposited data

How the results depend on the processing

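The count of scaffold genes past the threshold was 0 in every comparison under every alternative run, except that it was 1, Dlg4, for Cdk5i against WT with no low-count filter. The Dlg2 share of the MAGUK family in scrmb libraries was 34.5% when only the length free of other genes was used, in place of 33.5%. That length is the same in every library, so the Dlg2 share rose in all groups. Only in scrmb libraries, where the SD was 0.799%, was the change larger than the SD of the group. Of the log2 fold changes of scaffold genes, 557 kept direction and side of the threshold and 36 changed sign, none of them past the threshold on either side, and the cause was not tested. For Cdk5i against scrmb these were Dlg2 at -0.018 with length offsets and -0.019 with length offsets and the replicate block, Shank3 at -0.026 with each of these and -8.5e-05 without the 3 libraries highest in Homer1, and Homer1 at 0.091 with the activity score, 0.068 by limma-voom and 0.14 without the 3 libraries. For Cdk5i against WT they were Dlgap1 at -0.099 and Homer1 at -0.048 without the 3 libraries, and Homer1 at -0.00057 with length offsets and -0.0045 by limma-voom. For scrmb against WT they were Dlg3 at -0.027, Homer1 at -0.19 and Shank2 at -0.013 without the 3 libraries, Homer1 at -0.073 and Shank2 at -0.0033 by limma-voom, and Shank2 at -0.0030 with the activity score, -0.0014 by DESeq2 and with its size factors, and -0.00069 with a filter of 50 counts. The activity score and the 3 libraries were chosen after seeing the data.

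With each library left out in turn, the log2 fold changes that changed sign ran from -0.11 to 0.061 for Dlg1, -0.063 to 0.073 for Dlgap1 and -0.21 to 0.20 for Homer1 in Cdk5i against WT. In Cdk5i against scrmb they ran from -0.33 to 0.38 for Homer1, -0.012 to 0.22 for Shank1 and -0.037 to 0.052 for Shank3, and in scrmb against WT from -0.34 to 0.35 for Homer1 and -0.043 to 0.064 for Shank2. Over all genes, the counts past the threshold of 2 for Cdk5i against scrmb, 12 for Cdk5i against WT and 13 for scrmb against WT were 27, 113 and 75 by DESeq2 and 159, 408 and 318 with no low-count filter. For Cdk5i against WT the count was 6 with a filter of 50 counts, 3 with non-robust dispersion, 2 with only the groups compared and 19 with the activity score, and for scrmb against WT it was 6 with that filter and 6 with non-robust dispersion. Without the 3 libraries highest in Homer1 the counts were 10, 3 and 8. With each library left out in turn they ran from 2 to 18, 2 to 14 and 2 to 17. Genes of the 5 postsynaptic lists past the threshold, 0 in each comparison, were 0, 2 and 3 by DESeq2 and 3, 9 and 7 with no low-count filter, and 1 for Cdk5i against WT with length offsets and with the activity score.

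The groups share replicate numbers. The correlation of same-numbered deviations exceeded 0.1 in 2 of 9 pairs and was the best with its own number in 3 of 9. All of the latter were between scrmb and WT, at 0.19, 0.10 and 0.095 for numbers 1 to 3. A pairing of scrmb with WT libraries by number is therefore not excluded. In the comparisons with Cdk5i the correlation ran from -0.36 to 0.013 and was never the best with its own number. With the replicate block the counts over all genes were 2 for Cdk5i against scrmb, 2 for Cdk5i against WT and 2 for scrmb against WT, likewise with length offsets added, and 0 scaffold genes passed. Counting error of the scaffold genes was at most 2.74% per library.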

Other observations

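The scaffold of the inhibitory synapse, which holds GABA receptors in place of glutamate receptors, was read in the same libraries. Of its 7 tested genes 0 passed the threshold in any comparison by edgeR, while Gphn and Insyn1 had an unadjusted p under 0.05 in both comparisons with WT, 2 of 7 in each, where 11.0% of all genes had one for Cdk5i against WT and 10.1% for scrmb against WT. Gphn, which encodes gephyrin, averaged 696 ± 65.5 CPM in Cdk5i and 714 ± 18.4 CPM in scrmb libraries, against 969.5 ± 212 CPM in WT libraries (SD, n = 3 each). Its log2 fold change was -0.48 ± 0.13 (SE) for Cdk5i against WT, with an edgeR adjusted p of 0.243, and -0.44 ± 0.13 for scrmb against WT, with an adjusted p of 0.321. By DESeq2 the adjusted p for Cdk5i against WT was 0.0282, and with no low-count filter Gphn passed in both comparisons with WT. Insyn1 had a log2 fold change of 0.27 ± 0.099 for Cdk5i against WT (adjusted p = 0.361) and 0.24 ± 0.099 for scrmb against WT (adjusted p = 0.438), and Iqsec3 had 0.16 ± 0.081 and 0.17 ± 0.081 in these comparisons (adjusted p = 0.502 and 0.517). In Cdk5i against scrmb the lowest p was that of Nlgn2, at -0.11 ± 0.077 (adjusted p = 0.953), before Lhfpl4 at 0.063 ± 0.083 (adjusted p = 0.970).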
